A study of Sus scrofa with 6 samples.

Results

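PS24 and 30AC5 are induced pluripotent stem (iPS) cell lines of the pig whose labels both list SSEA1. PS24 was labelled positive for SSEA1, SSEA3 and SSEA4, and 30AC5 for SSEA1 alone. They were chosen by those labels and are 2 of the 6 samples of the series, each measured on 1 Affymetrix Pig Genome Array. The other samples serve here as reference. PEF is a culture of embryo fibroblasts, PAFSC was grown from amniotic fluid stem cells, and iPF4-2 and iPSCs-w are iPS lines labelled positive for SSEA3 and SSEA4. The labels describe all 4 iPS lines as pluripotent, and all of them were grown on inactivated mouse embryo fibroblast feeders in the same serum-containing medium. The series set lines of its own laboratory beside lines of other laboratories with different markers and plasticity. Which line came from where, the reprogramming factors, the donor animals and their sex are not given in the labels.

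Induced pluripotent stem cells are somatic cells returned to an embryonic-like state by a few transcription factors, among them POU5F1 (OCT4) and KLF4. The stage-specific embryonic antigens are carbohydrate epitopes, not proteins. SSEA1 is a fucosylated lactosamine (Lewis X), whereas SSEA3 and SSEA4 are globo-series glycolipids, so they are made by glycosyltransferases and no single transcript stands for any of them. A line that keeps transcripts of the fibroblast it came from, such as collagens and contractile proteins, is usually described as less completely reprogrammed.

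With 1 array per line, no test of PS24 against 30AC5 is possible, and every difference below describes these arrays. The deposited numbers are on a log2 scale with a separate zero for each probe set. A value of 0 is therefore not absence, and a number can be compared across arrays within 1 probe set, never between genes. Differences are PS24 minus 30AC5 in log2 units, so a difference of 2 is 4-fold. The counts below take a difference of 2 or more for a probe set. For a gene they take the mean over its probe sets and a difference of 1 or more, which is 2-fold. Over all 6765 genes PS24 was higher by 1 or more for 192 (2.84%) and lower for 457 (6.76%), and the median difference was 0.02; the list counts below are read against these shares. Where a gene has several probe sets, the lowest and highest difference among them show how far the probe sets agree. Where 6 values stand in a row, the somatic samples come first (PEF, then PAFSC), followed by PS24 and 30AC5 and last by iPF4-2 and iPSCs-w.

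The arrays of both lines had like medians (0.05 in PS24 and 0.00 in 30AC5) and like spreads over the 23935 probe sets analysed (SD 0.668 and 0.652). The PAFSC array stood apart, with a median of 0.69 and an SD of 2.01; its values are given, and no count of PS24 against 30AC5 as deposited uses them. PS24 stood apart in 1 respect. The array carries control probe sets at the 5' and 3' ends of 3 genes active in all cells, and low 5' signal against 3' signal is a sign of short or partly copied RNA. In PS24 the 5' value lay below the 3' value by 1.70 for GAPDH, by 2.03 for actin and by 1.98 for EF1A, while its 3' values were near 0 (0.07, -0.01 and 0.02). The mean 5' minus 3' value reached -1.90 in PS24 but 0.19 in 30AC5, with 0.04 in PEF, -0.03 in iPF4-2 and 0.09 in iPSCs-w. The low 5' signal moves with every result in which PS24 is lower. Its part in them was not tested, and for that reason genes whose several probe sets agree have paragraphs of their own. Many marker, list and single genes below have 1 probe set, where no such check exists.

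**Figure D1:**
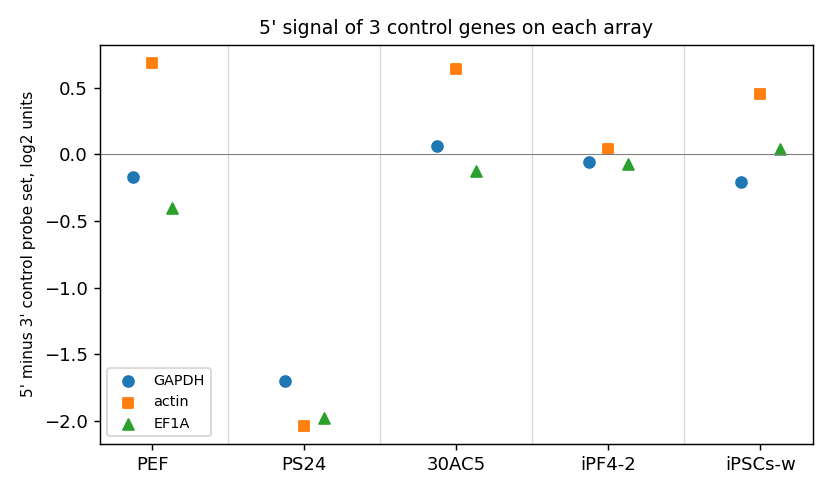
Difference between the 5' and the 3' control probe set (vertical axis, log2 units) of GAPDH (circles), actin (squares) and EF1A (triangles) on 5 arrays, 1 array per sample, with PAFSC left out. The 3 points of PS24 lie between -2.03 and -1.70, below every point of PEF, 30AC5, iPF4-2 and iPSCs-w.

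The labels were first set against marker transcripts. POU5F1, the core pluripotency factor, was -0.50, 1.09, 0.07, -0.07, 3.68 and 3.61. PS24 and 30AC5 thus held POU5F1 within 1 unit of PEF, and iPF4-2 and iPSCs-w lay more than 3 units above both. DPPA5, a germline and pluripotency RNA-binding protein, was -0.80, 0.52, -1.07, -1.04, 2.31 and 1.64. DNMT3B, the de novo DNA methyltransferase of early embryos, was 0.04 in PS24 and -0.12 in 30AC5, and the lines whose labels omit SSEA1 had 1.18 (iPF4-2) and 2.88 (iPSCs-w). ZFP42 (REX1) was -0.69 in PS24 and -0.62 in 30AC5, with -0.12 in PEF. Of the 15 listed core pluripotency genes these 4 were measured, and the differences between PS24 and 30AC5 ran only from -0.07 to 0.16. For these 4 transcripts the lines were near each other and near PEF, although the labels call both lines pluripotent. KLF4 was the 1 reprogramming factor of the 4 measured (of 10 listed) that differed by 1 or more. It stood at 2.12, 2.79, -2.91, -0.63, -0.79 and -0.80, lower in PS24 than in 30AC5 by 2.28 (difference -2.28), and lower in PS24 than in PEF and the other iPS lines.

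Of the enzymes listed for the antigens in the labels, those measured differed little. Of 29 listed genes of lactosamine, Lewis, globo-series and related glycans, 14 were measured, with a median difference of 0.20. FUT4, FUT9, A4GALT and B3GALT5 were not among the 14, so the enzymes of these antigens were compared only in part. B4GALT4, a galactosyltransferase of lactosamine chains, differed by -1.54 and was the only one of the 14 past 1 unit. FUT1 and FUT2, fucosyltransferases of the H antigen, differed by 0.32 and 0.93. ST3GAL2, a sialyltransferase that can complete SSEA4, differed by -0.07, and ST3GAL1 by 0.83 over 4 probe sets that ran from 0.14 to 1.59. B3GALNT1 differed by -0.27 on average, but its probe sets, at -0.93 and 0.39, pointed in opposite directions. Transcripts of these 14 genes therefore did not set PS24 apart as the line labelled for SSEA3 and SSEA4 at a size of 1 unit, save for B4GALT4, which was lower there.

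Fibroblast transcripts were low in both lines. In cultures measured as a whole, fewer cells of a type and less RNA per cell cannot be told apart. The iPS lines grew on mouse fibroblast feeders. Whether feeder RNA adds to these values, or to those of the contractile genes below, was not tested. Of the 15 measured fibroblast and mesenchymal genes (18 listed), PEF lay at least 1 unit above both lines for 12. The median level of the list was 2.65 in PEF, -0.11 in PS24 and -0.09 in 30AC5, and the median difference was -0.17. LUM, the matrix proteoglycan lumican, was 7.34, 1.59, -0.44, -0.02, 3.77 and -0.69. COL1A2, a chain of type I collagen, was -0.11 in both PS24 and 30AC5, with 2.12 in PEF. THY1, a surface glycoprotein of fibroblasts, was 3.73 in PEF, -0.00 in PS24 and 0.39 in 30AC5. PDGFRB, a platelet-derived growth factor receptor, had a mean difference of -1.12, but its 2 probe sets were at -2.47 and 0.23. The only clear member in the other direction was FBN1 (fibrillin 1), described below.

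PS24 was higher than 30AC5 by 2 or more for 145 of the 23935 probe sets (0.606%) and lower for 359 (1.5%). Between iPF4-2 and iPSCs-w, whose labels are the same, the counts were 344 (1.44%) and 222 (0.928%). At 1 unit PS24 was higher for 1052 probe sets (4.4%) and lower for 1613 (6.74%), and iPF4-2 for 1174 (4.9%) and 1281 (5.35%). By gene means, iPF4-2 was higher than iPSCs-w by 1 or more for 277 genes (4.09%) and lower for 353 (5.22%), and at 2 or more for 80 (1.18%) and 68 (1.01%). The SD of the difference over all probe sets was 0.704 for PS24 against 30AC5 and 0.736 for iPF4-2 against iPSCs-w, so the 2 pairs were spread alike. Quantile normalization over the 6 arrays moved the share of the higher calls among all calls from 28.8% to 39.3%, with 444 probe sets higher and 686 lower in PS24. Of the 145, the annotation gave 1 symbol to 47, several to 3 and none to 95, and of the 359 it gave 1 symbol to 180, several to 2 and none to 177.

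Probe sets of the same gene are a check within the array. Each probe set past 2 units was paired with every other probe set of its gene. The 27 PS24-higher ones, of 22 genes, gave 45 pairs. The other probe set pointed the same way in 42 (93.3%), 18 by 1 unit or more. The 109 PS24-lower ones, of 98 genes, gave 214 pairs. The other pointed the same way in 153 (71.5%), 71 by 1 unit or more, and the opposite way by 1 unit or more in 3. In the pair iPF4-2 and iPSCs-w the shares were 91.6% (72 probe sets of 51 genes) and 85.1% (55 of 44). Where several probe sets of a gene passed 2 units in 1 direction, they count as each other's partners, which raises these shares. The shares are thus not over distinct probe sets, and the difference between them was not tested. Asking that every probe set of a gene differ by 1 unit or more left 18 genes higher in PS24 (0.796% of the 2261 genes with several probe sets) and 49 lower (2.17%). For iPF4-2 against iPSCs-w the same rule gave 42 (1.86%) and 44 (1.95%).

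**Figure D2:**
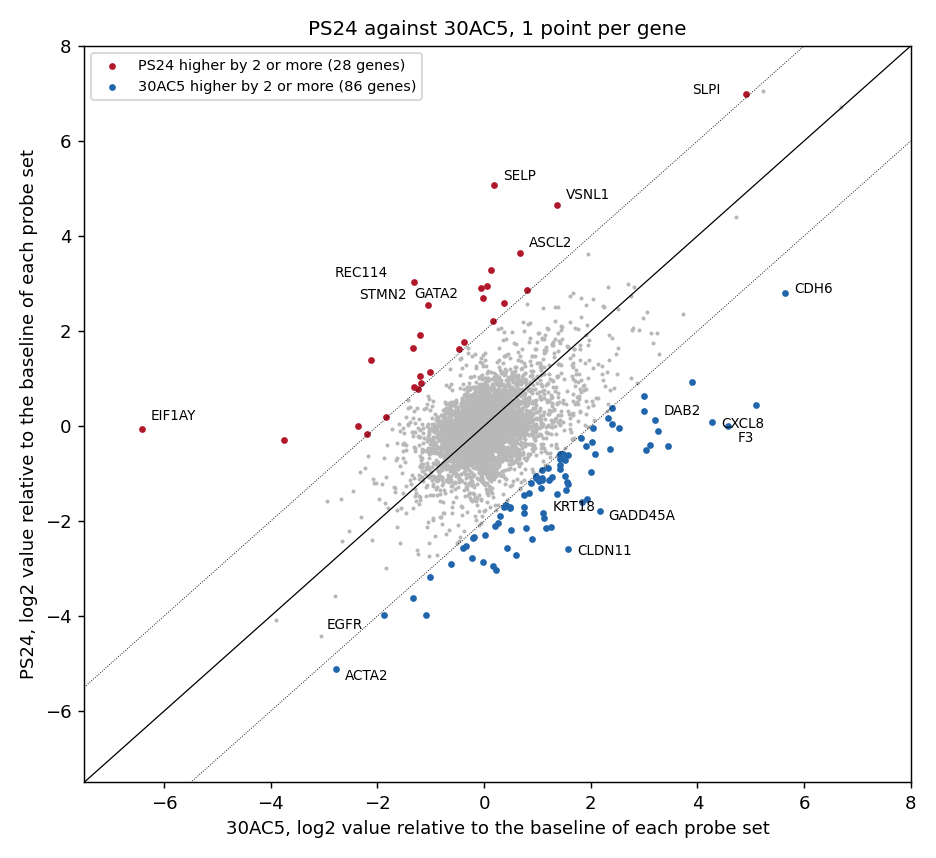
Level of each of 6765 genes in 30AC5 (horizontal axis) and PS24 (vertical axis), in log2 units on the deposited scale and averaged over the probe sets of a gene. The solid line marks equal values and the dotted lines a difference of 2; 28 genes lie above the upper dotted line (0.414%, red) and 86 below the lower one (1.27%, blue).

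PEF shows on which side the pair departs from the fibroblast level. Of the 145 probe sets higher in PS24, PS24 lay at least 1 unit above PEF for 94 (64.8%), and 30AC5 at least 1 unit below PEF for 76 (52.4%). Of the 359 higher in 30AC5, 30AC5 lay at least 1 unit above PEF for 161 (44.8%) and within 1 unit of it for 140 (39.0%), whereas PS24 lay at least 1 unit below PEF for 243 (67.7%). Over all probe sets PS24 lay at least 1 unit below PEF for 9.95% and at least 1 unit above it for 8.51%. For 30AC5 these shares were 8.97% and 8.48%, and 82.5% lay within 1 unit of PEF. These shares are a description, since the same PS24 and 30AC5 values chose the probe sets. In the larger group PS24 below PEF was more frequent than 30AC5 above PEF, at 67.7% against 44.8% of the 359. How much of these shares the choice of probe sets alone would give was not tested.

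The 4 largest differences with PS24 higher belonged to 1 pattern, which was noticed after the values were seen. EIF1AY, the Y-linked copy of a translation initiation factor, was -6.27, -3.11, -0.06, -6.42, 0.22 and -6.42, a difference of 6.37. A probe set annotated to both LOC100624149 and EIF2S3 (another initiation factor subunit) was -7.12, -7.76, 0.01, -7.04, 0.55 and -6.63. The next, annotated to TMSB4X (the actin-binding thymosin beta 4), was -4.54, -4.48, 0.15, -6.38, 0.27 and -6.64. PS24 and iPF4-2 were near 0 in all of them, and PEF, 30AC5 and iPSCs-w were between -8.07 and -4.54 over the 4. The remaining probe set has no symbol and had the largest difference of all, 8.40. No other probe set had PS24 and iPF4-2 both at least 4 units above PEF, 30AC5 and iPSCs-w, and 1 unnamed probe set had both at least 4 units below them. The labels do not give the sex of the animals.

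Among genes with several probe sets, STMN2 and CXCL14 led those higher in PS24. STMN2, a microtubule regulator of neurons, was 2.03, -3.20, 2.55, -1.05, 3.08 and -3.73, and its 2 probe sets differed by 3.35 and 3.85. PS24 thus had STMN2 at the level of PEF and iPF4-2, with 30AC5 below them. CXCL14, a chemokine of epithelia and stroma, was -0.01, -1.64, 1.39, -2.13, -0.41 and -2.27, with differences of 2.83 and 4.20. NFIB, a nuclear factor I transcription factor, was 3.14, -0.74, 2.59, 0.38, -3.02 and -2.14, close to PEF in PS24 and between PEF and the other lines in 30AC5. FBN1, the microfibril protein, was 2.74, 3.76, 1.14, -1.01, -0.02 and -2.74, and its probe sets differed by 2.03 and 2.26. Its companion in the extracellular matrix, CCDC80, was 1.89, 2.95, 1.32, -0.05, 0.05 and -2.10, with a mean difference of 1.36. STMN2, NFIB and FBN1 were thus within 2 units of PEF in PS24 and more than 2 units below PEF in 30AC5, so that for these 3 genes 30AC5 was the line farther below the fibroblasts.

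Further genes with agreeing probe sets showed other patterns across the arrays. ITM2A, a membrane protein of cartilage and T cells, was -0.06, 0.82, 2.86, 0.81, 2.85 and 2.25, so PS24 equalled iPF4-2 and 30AC5 lay nearer to PEF. HNRNPH2, an X-linked RNA-binding splicing protein, was 0.42, -0.91, 0.82, -1.32, -0.20 and 0.85, and SLC35F6, a member of a nucleotide sugar transporter family, was 0.77, -0.17, 0.63, -1.06, -0.26 and 0.05. PLN (phospholamban), the inhibitor of the calcium pump of muscle, was -1.01, 1.39, 0.91, -1.18, 2.96 and -1.41. In HNRNPH2 and SLC35F6 30AC5 lay below PEF and the other iPS lines. S100G, the vitamin D-dependent calcium binder calbindin, was -0.41, 1.01, 1.63, -0.31, -0.19 and 1.41, high in PS24 and iPSCs-w. IFI30, a lysosomal thiol reductase of antigen processing, was 1.42, 0.93, 2.18, 0.73, -0.31 and -0.45, above the other iPS lines in both PS24 and 30AC5.

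GATA2 and GATA3 were also higher in PS24. GATA2, a zinc-finger factor of trophoblast, blood and endothelium, was -0.10, 1.41, 2.68, -0.03, 1.56 and 1.33, and its probe sets differed by 1.91 and 3.52. GATA3, which acts with it in trophoblast and other epithelia, was 0.35, 0.70, 2.06, 0.31, -0.30 and -1.16, with 4 probe sets from 0.75 to 2.67. In both genes 30AC5 lay next to PEF, and PS24 lay above PEF and the other iPS lines. ASCL2, an imprinted helix-loop-helix factor of trophoblast and intestinal stem cells, was -0.23, 1.42, 3.65, 0.67, -0.04 and 0.49 on its 1 probe set. Of the other GATA factors measured, GATA4 differed by 0.57 and GATA6 by -0.10. The rest of the trophoblast list did not follow: TFAP2C differed by -0.08, HAND1 by 0.05 and TEAD4 by -0.77. Of its 5 measured genes 2 were thus higher in PS24 by 1 or more (2.84% over all genes) and 0 lower. The median was 0.05, and 2.23 with genes of several probe sets alone, which are GATA2 and GATA3.

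Of the genes with 1 probe set, SELP had the largest named difference after EIF1AY. SELP, the platelet and endothelial adhesion receptor P-selectin, was 0.12, 1.89, 5.07, 0.19, 0.20 and 0.00, high in PS24 alone among the iPS lines. The other 9 of the 10 endothelial genes differed by -0.40 to 0.47, and PECAM1, CDH5 and VWF in PS24 were 0.11, 0.11 and 0.12. REC114, a meiotic recombination protein, was -0.27, 1.26, 3.03, -1.32, -0.29 and 1.28. VSNL1, a neuronal calcium sensor, was -0.00, 1.43, 4.66, 1.36, 1.29 and -0.16. PLAC8 was 0.25, -0.54, 3.28, 0.12, -0.02 and -0.22. ENPEP, the membrane peptidase that trims angiotensin II, was -0.56, 1.07, 2.91, -0.05, 0.12 and 0.05. In SELP, VSNL1, PLAC8, ASCL2 and ENPEP it was PS24 that stood above PEF and the other iPS lines. SERPINI1 (neuroserpin) was the reverse, with -0.29 in PS24, 0.29 in PEF and -3.75 in 30AC5. PROM1, the surface protein CD133 of stem and epithelial cells, was -1.40, -0.47, 0.00, -2.37, 1.91 and 1.52. The lowest value was that of 30AC5, and PS24 lay between PEF and the lines iPF4-2 and iPSCs-w.

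The neural list was the only list with a median difference of 1 or more. Of 11 genes 5 were measured, all 5 were higher in PS24, and 3 of them by 1 or more (2.84% over all genes). The median was 1.13, and it was 0.34 when each gene was given by the probe set with the smallest difference. STMN2 is described above. MAP2, a dendrite microtubule protein, differed by 0.97 and 1.44 on its probe sets, and SYT1, the synaptic vesicle calcium sensor, by 0.23 and 2.03. NEUROD1 and NCAM1, a neuronal transcription factor and an adhesion molecule, differed by 0.36 and 0.21.

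**Figure D3:**
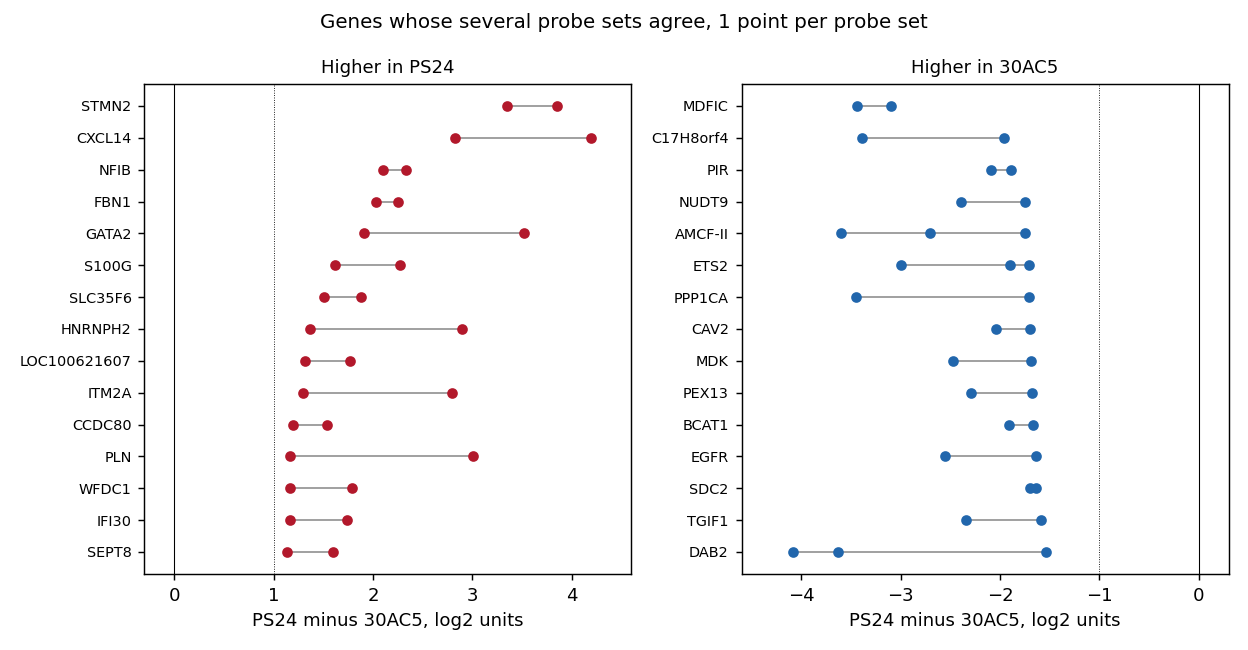
Difference PS24 minus 30AC5 (horizontal axis, log2 units) of every probe set of the 15 genes per direction whose weakest probe set differed the most, 1 point per probe set joined by a line; the dotted line marks 1 unit. STMN2 (3.35 and 3.85) heads those higher in PS24, and MDFIC (-3.43 and -3.10) those higher in 30AC5.

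Among genes with several probe sets that were higher in 30AC5, MDFIC, DAB2, AMCF-II, ETS2 and SDC2 followed PEF. MDFIC, an inhibitor of MyoD-family factors, was 2.49, -0.90, -2.37, 0.89, -0.29 and -0.66. DAB2, an endocytic adaptor and tumour suppressor, was 2.83, 0.96, 0.12, 3.20, -0.00 and -0.99, with 3 probe sets from -4.09 to -1.54. SDC2, a cell-surface heparan sulphate proteoglycan, was 3.54, 1.73, 0.09, 1.77, -1.17 and -2.15, and its probe sets differed by -1.70 and -1.64. For DAB2, 30AC5 stood at or above PEF while PS24 was near 0, and for MDFIC and SDC2 30AC5 lay between PEF and PS24. ETS2, a transcription factor downstream of ERK, was 0.71, 1.09, -1.17, 1.04, -1.67 and 0.10 over 3 probe sets from -2.99 to -1.71. TGIF1, a homeobox repressor of TGF-beta signalling, was lower in PS24 than in the other iPS lines, at -2.47 against -0.50, 0.00 and -0.00. MDK, the heparin-binding growth factor midkine, was -1.71 in PS24 and 0.37 in 30AC5, while iPF4-2 had 0.47 and iPSCs-w -0.22. CAV2 (caveolin 2), PIR (pirin, an iron-binding nuclear protein), NUDT9 (an ADP-ribose hydrolase), PEX13 (peroxisome import) and BCAT1 (branched-chain amino acid transaminase) had mean differences from -2.07 to -1.78. In MDK, NUDT9, PEX13, BCAT1 and TGIF1 PS24 was the lowest of the 4 iPS lines. The other 3 lay within 2 units of PEF, and so did PS24 in all of these genes but MDK.

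Secreted inflammatory signals split in direction. CXCL8 (interleukin 8), a neutrophil chemokine, was 6.59, 0.86, 0.07, 4.27, 0.45 and -0.31, a difference of -4.20. AMCF-II, a related neutrophil chemokine of the pig, was 4.87, 0.74, 0.32, 3.00, -0.51 and 0.28, with 3 probe sets from -3.60 to -1.74. CCL2, a monocyte chemokine, was 6.56, 0.86, -1.04, 0.97, -1.01 and 1.12, and the cytokine IL6, taken from the LIF/JAK/STAT list, was 1.62, 2.90, -0.97, 2.00, -1.17 and 0.34. These genes were lower in PS24 than in 30AC5, and CXCL8, AMCF-II and IL6 were higher in 30AC5 than in the other 3 iPS lines. CXCL2, also a neutrophil chemokine, went the other way, with 5.09, 1.45, 7.06, 5.24, -0.35 and 0.02. SLPI, a secreted inhibitor of leukocyte proteases, was 0.71, 1.43, 6.99, 4.92, -0.63 and 0.26. Both lines thus held CXCL2 and SLPI at 4.92 or more, where iPF4-2 and iPSCs-w were between -0.63 and 0.26, and PS24 exceeded 30AC5 by 1.82 and 2.07. NFKBIA, the NF-kappaB inhibitor that the pathway itself induces, was 2.04 in PS24 and 1.75 in 30AC5. Of 23 measured genes of the list (36 listed) 3 were higher in PS24 by 1 or more and 3 lower (CXCL8, AMCF-II and CCL2), with a median of 0.17. The macrophage and blood markers were near 0 in both lines apart from AIF1 (-1.63 and -1.86), and 0 of the 8 measured differed by 1 or more.

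AREG and EGFR, a ligand and its receptor, were both lower in PS24. AREG (amphiregulin), a ligand of the receptor EGFR, was 2.71, 1.49, -0.51, 3.03, 0.03 and -0.03. EGFR itself was 0.93, -1.74, -3.98, -1.88, -0.30 and 0.01, and its probe sets differed by -2.56 and -1.64. PS24 had the lowest EGFR value, yet 30AC5 was also below PEF, iPF4-2 and iPSCs-w. EGF, looked up after these values were seen, was 0.03, 1.55, 0.93, 3.90, 0.57 and -0.03, and the ligands HBEGF and TGFA differed by -0.19 and 0.24. FGFR2, a fibroblast growth factor receptor, was 0.14, -0.83, -2.37, -0.20, 0.51 and 0.89. FGF2 was 0.17, 1.29, 1.96, 3.24, 0.28 and 0.37, above PEF and the other iPS lines in both PS24 and 30AC5, and higher in 30AC5 by 0.87 and 1.69 on its 2 probe sets (differences of -0.87 and -1.69). FOS, the immediate early factor of the ERK pathway, was instead higher in PS24, with 3.31, 1.77, 1.76, -0.38, 2.56 and 1.95. The FGF and ERK list held 2 genes at 1 or more and 2 at -1 or less among 11 measured, with a median of 0.04.

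**Figure D4:**
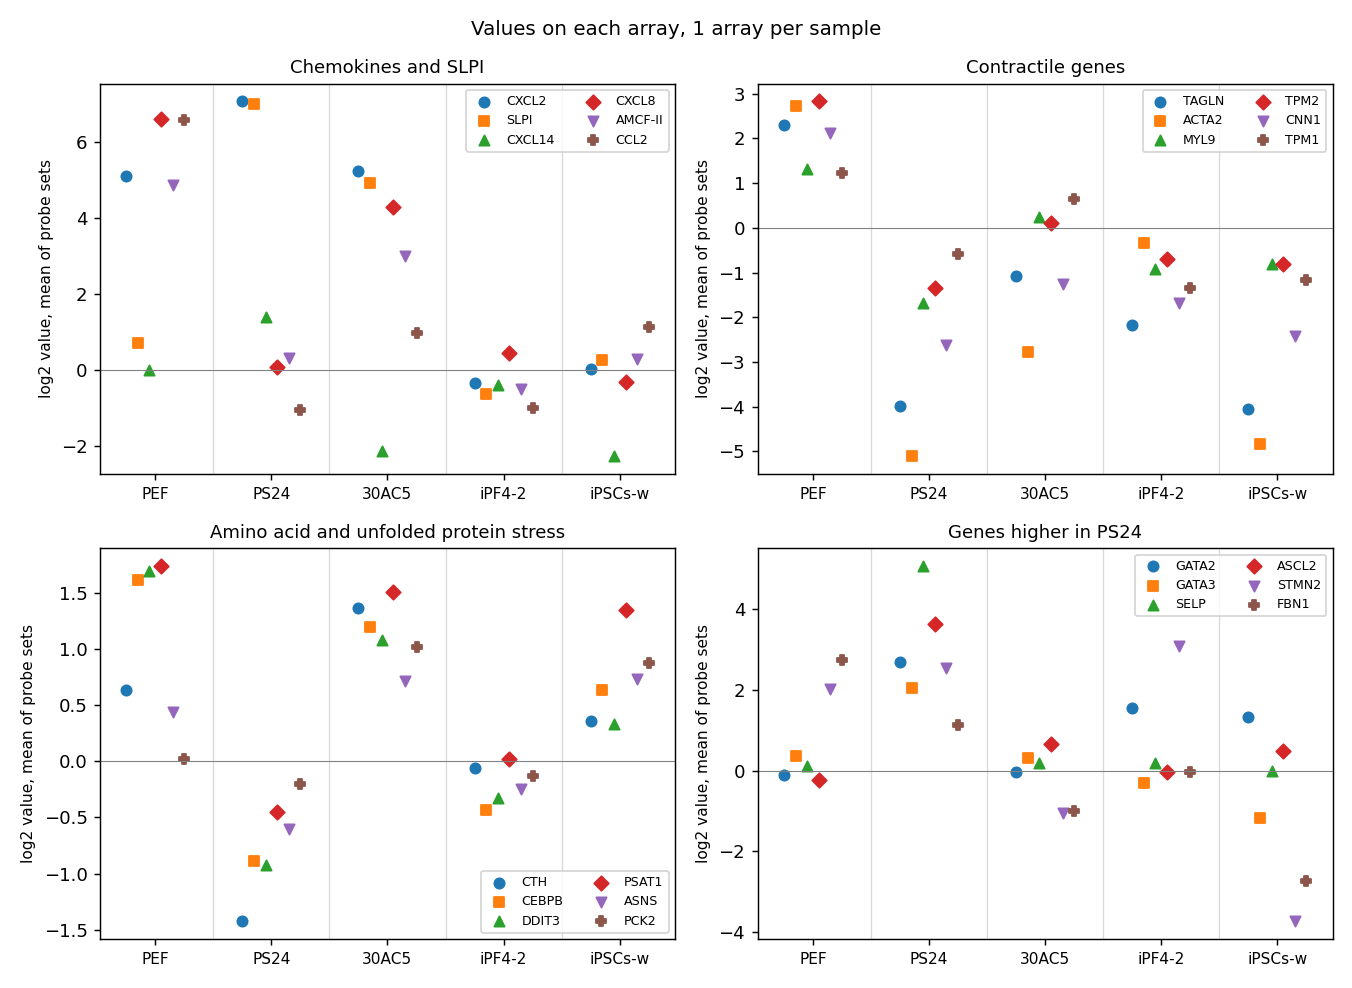
Values of 24 genes in 4 panels (vertical axis, log2 value relative to the baseline, mean of probe sets) on the arrays of PEF, PS24, 30AC5, iPF4-2 and iPSCs-w, 1 point per gene and array, with PAFSC left out. CXCL8 is 0.07 in PS24 and 4.27 in 30AC5, ACTA2 is -5.11 and -2.77, CTH is -1.43 and 1.37, and SELP is 5.07 and 0.19.

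The list of unfolded protein and amino acid stress genes had a median difference of -1.27. Of 25 genes 16 were measured; 14 were lower in PS24, 9 of them by 1 or more (6.76% over all genes), and 1 was higher by 1 or more. CTH, which makes cysteine from cystathionine, was 0.64, -6.32, -1.43, 1.37, -0.06 and 0.36. DDIT3 (CHOP), the stress-induced partner of C/EBP factors, was 1.69, 1.65, -0.93, 1.08, -0.33 and 0.33, and CEBPB was 1.62, 2.82, -0.89, 1.20, -0.43 and 0.64. In these 3 genes 30AC5 was the highest of the iPS lines and PS24 the lowest. PSAT1, of serine synthesis, was 1.74, -5.12, -0.45, 1.51, 0.02 and 1.35, and ASNS (asparagine synthetase) was 0.44, -3.62, -0.60, 0.72, -0.25 and 0.73. PCK2, the mitochondrial phosphoenolpyruvate carboxykinase, was -0.20 in PS24 and 1.02 in 30AC5, and its 3 probe sets ran from -1.49 to -0.77. DNAJB9, a chaperone of the endoplasmic reticulum, was -1.31 in PS24 and 0.14 in 30AC5, with 3 probe sets from -1.72 to -1.15. ATF4, the transcription factor that drives many of them, had probe sets at -1.53 and 0.09. SDF2L1, an endoplasmic reticulum protein, was the exception at 1.09. Over the list 30AC5 was the highest iPS line for 11 of the 16 genes and PS24 the lowest for 11. The median level of the list was -0.34 in PS24 and 0.73 in 30AC5, with 0.57 in PEF, -0.10 in iPF4-2 and 0.37 in iPSCs-w. Of these genes 2 that have 3 probe sets each, PCK2 and DNAJB9, were lower in PS24 on all of them.

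Contractile genes had a median difference of -1.40. Of the 8 measured, 6 were lower in PS24 by 1 or more and 0 higher. TAGLN (transgelin) was 2.30, 0.67, -3.97, -1.08, -2.17 and -4.05, and ACTA2 (smooth muscle actin) was 2.72, 1.74, -5.11, -2.77, -0.33 and -4.83. MYL9, the regulatory light chain of myosin, was 1.32, -0.23, -1.67, 0.25, -0.93 and -0.80. PEF was at least 1 unit above both lines for 7 of the 8 genes, so 30AC5 lay between the fibroblasts and PS24 for most of the list. CNN1 (calponin) was -2.61 in PS24 and -1.27 in 30AC5, with 2.12 in PEF. The genes with several probe sets were less uniform. TPM2 (beta tropomyosin) had 4 probe sets from -3.11 to 0.46, TPM1 had 3 from -2.35 to -0.17, and CALD1 (caldesmon) and DES (desmin) differed by 0.17 and 0.09 on average. The median was -0.81 with the probe set of smallest difference or of highest mean, and -0.56 with genes of several probe sets alone. ACTG2, an actin of enteric smooth muscle outside the list, was 1.73, 0.69, -1.73, 0.48, -2.44 and -1.92, and both its probe sets (-3.38 and -1.04) were lower in PS24. The fibroblast list, by contrast, held 1 gene in each direction, as given above.

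KRT18, KRT8 and ESRP1 differed more between the lines than the other measured epithelial genes. KRT18 was -0.68, 0.68, -1.93, 1.12, 3.34 and 2.81, and its partner KRT8 was 0.51, -0.27, -0.70, 1.42, 2.01 and 1.44. ESRP1, the splicing regulator of epithelial cells, was -1.03, -2.54, -1.09, 0.97, 1.35 and 3.61. For these 3 genes 30AC5 lay between PS24 and iPF4-2. PS24 lay below PEF for KRT18 and KRT8 and next to PEF for ESRP1. KRT8 had probe sets at -3.33 and -0.92, and KRT19, also a keratin of simple epithelia, differed by -0.74. OCLN (occludin) was 0.71 in PS24 and 1.82 in 30AC5, with 3 probe sets from -1.55 to -0.76, and DSP (desmoplakin) had probe sets at -1.81 and -0.32. EPCAM, a surface marker of pluripotent and epithelial cells, was -1.67, 0.16, -0.16, -1.03, 3.18 and 4.98, low in both lines and higher in PS24 by 0.86. CDH1 (E-cadherin) was 0.35 in PS24 and 0.62 in 30AC5, between -1.34 in PEF and 1.46 in iPF4-2. Of 15 measured epithelial genes 5 were lower in PS24 by 1 or more and 0 higher, with a median of -0.43.

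Glucose and amino acid carriers that differed by 1 or more were lower in PS24. SLC2A1 (GLUT1), a glucose carrier, was -0.01, -2.16, -1.77, 0.01, -1.26 and -1.45, so 30AC5 equalled PEF and PS24 lay with the other iPS lines. SLC2A3 (GLUT3), a glucose carrier of high affinity, was -0.59, -3.67, 0.59, 2.09, 1.03 and 0.62, and SLC2A5, a fructose carrier, was -3.52, -0.89, -2.09, -0.09, -1.69 and 0.16. SLC1A4, a carrier of neutral amino acids, was -0.62 in PS24 and 0.82 in 30AC5. Of 22 measured solute carriers 6 were lower in PS24 by 1 or more and 0 higher. By sign alone 13 were lower and 9 higher. The median was -0.18, and it was 0.12 with genes of several probe sets alone. The carriers named here have 1 probe set each. In glycolysis ENO2 (neuron-type enolase) was 0.05, 0.97, -0.41, 1.91, -0.55 and -1.96, whereas the median over the 18 measured genes was -0.09. Of 12 measured hypoxia-induced genes 11 were lower in PS24, 4 of them by 1 or more, with a median of -0.55. VEGFA, among these 4, had 4 probe sets from -2.72 to 0.28, and ANGPTL4 had 2, at -1.11 and -0.90. TXNIP, a glucose-induced arrestin that limits glucose uptake, was -2.85, -2.37, -1.17, 1.55, -0.54 and -1.61. MT1A, a metal-binding metallothionein, was -0.02, 1.75, -1.54, 1.94, -1.12 and 0.02. In TXNIP and MT1A it was 30AC5 that stood above PEF and the other iPS lines.

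Other single genes of large size followed the level of PEF in 30AC5. F3 (tissue factor), which starts blood clotting, was 4.40, 0.71, -0.00, 4.58, 0.00 and -1.10. CLIC2, a chloride channel protein, was 2.50, -0.34, -0.42, 3.45, -1.15 and -1.20, and GADD45A, a growth arrest and DNA damage gene, was 2.31, -0.35, -1.79, 2.17, -0.15 and 0.44. In each of these, 30AC5 was within 1 unit of PEF and the other 3 iPS lines were more than 1 unit under PEF. CLDN11, a tight junction claudin, was 3.22, -0.54, -2.60, 1.57, -3.15 and -4.03. SERPINB7 showed another pattern, -0.63, 0.06, -0.41, 3.11, 2.33 and 2.22, with PS24 alone among the iPS lines at the PEF level. CCNA2, the S-phase and mitotic cyclin A2, was -1.54, -0.23, -3.02, 0.23, -0.77 and 0.47 on 1 probe set, while the 23 measured cell cycle genes had a median of -0.20, and 2 were lower by 1 or more. The second of these, TYMS, had probe sets at -2.87 and 0.04.

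Positional and patterning genes differed for a few members. HOXA3 was 1.37, 0.26, -0.26, 1.82, -2.10 and -2.05, near PEF in 30AC5, and HOXB7 had probe sets at -1.79 and -1.11. HOXA9 was 2.99 in PS24 and 2.71 in 30AC5, with -4.49 in iPF4-2 and -2.02 in iPSCs-w, and so did not separate the pair. BMP4, a bone morphogenetic protein, was 0.55, 2.40, -0.74, 1.11, -0.32 and -1.57. ACVR1, a receptor for it and its relatives, had probe sets at -1.40 and -1.35, and SMAD3, which carries the TGF-beta signal to the nucleus, differed by -1.30. ID1, a target of BMP signalling, differed by 1.30, with 1.03 in PS24 and -0.27 in 30AC5. The TGF-beta, activin and BMP list as a whole (21 measured) had a median of 0.34. FZD5, a Wnt receptor, was -4.06, -3.33, -2.10, 0.20, 0.32 and -0.16, so that PS24 lay between PEF and the other lines. RBPJ, the DNA-binding partner of Notch, was lower in PS24 on 3 probe sets from -2.52 to -1.44. CXCR4, a chemokine receptor also used as an endoderm marker, was -0.59, -3.22, 1.97, 3.13, 0.59 and 0.79. APOA1, an apolipoprotein of liver and yolk sac, was 1.39, -0.38, -2.13, 1.25, 1.45 and -2.11, high in PEF as well. DIRAS3, an imprinted GTPase, was 0.90, -1.35, -1.83, 1.10, -0.51 and -1.95.

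**Figure D5:**
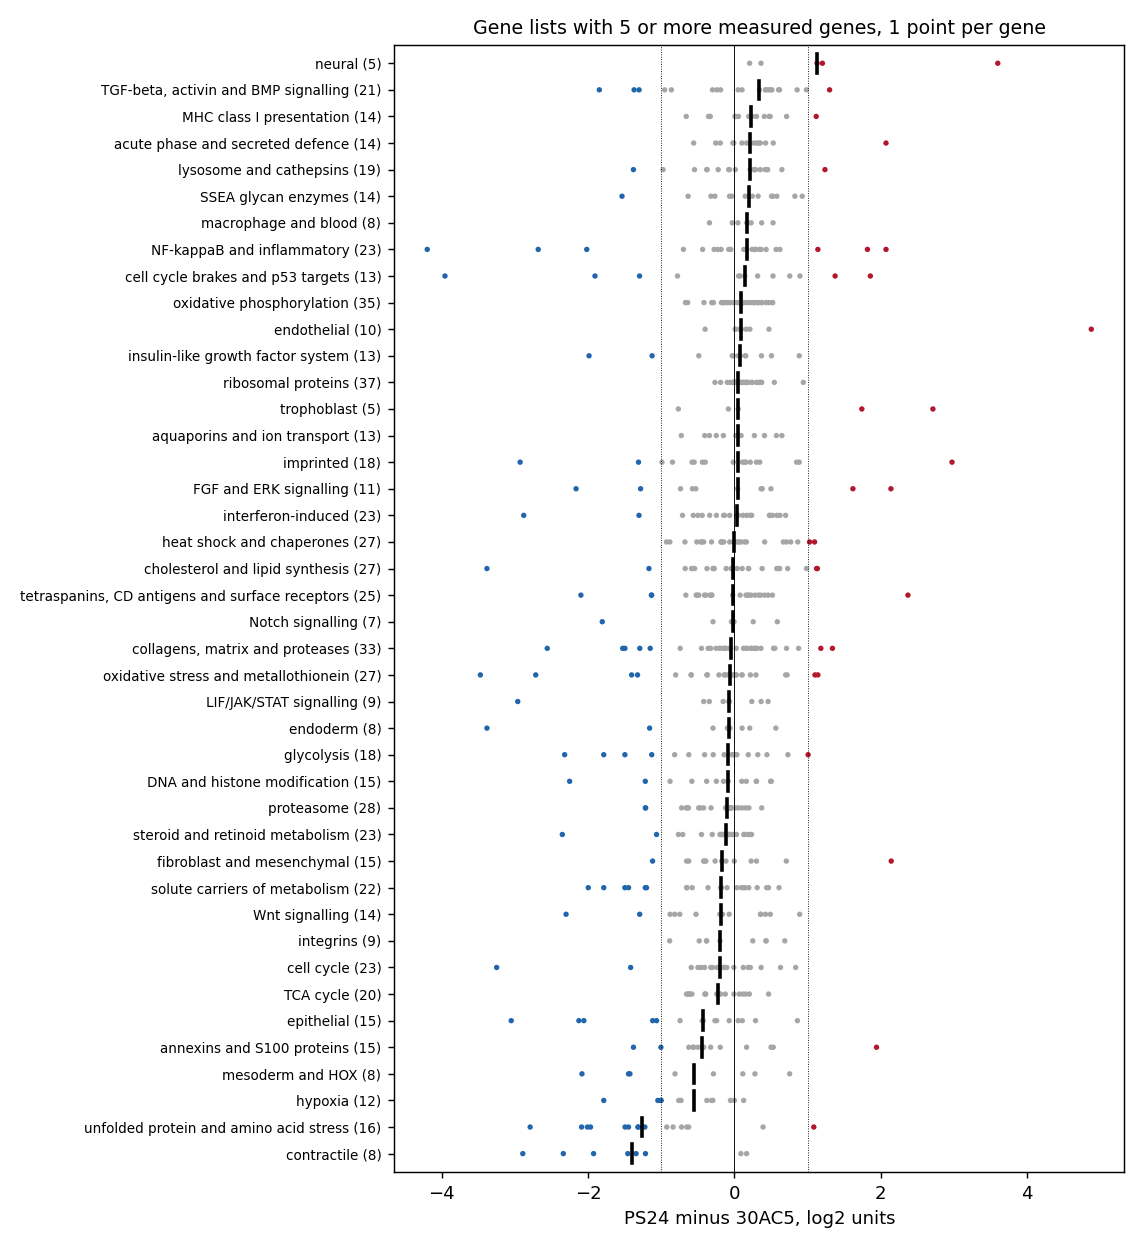
Difference PS24 minus 30AC5 (horizontal axis, log2 units) of every measured gene of the lists with 5 or more measured genes, 1 point per gene, with the median as a black bar and the number measured in brackets; dotted lines mark 1 unit either way. The neural list has a median of 1.13, the unfolded protein and amino acid stress list -1.27 and the contractile list -1.40, and the other medians lie between -0.55 and 0.34.

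Matrix, growth factor and lipid genes held members in both directions. NID2, a basement membrane nidogen, was 3.15, -1.21, -1.05, 1.51, -0.38 and 1.12, and LAMB1, a laminin chain, had probe sets at -1.53 and -1.52. MGP, an inhibitor of calcification, was 6.23, 0.83, 0.33, -1.01, -0.12 and -1.18, far below PEF in every iPS line and higher in PS24 than in 30AC5 by 1.34. Of 33 measured matrix genes 2 were higher in PS24 by 1 or more and 5 lower, and PEF lay at least 1 unit above both lines for 20. IGFBP2, a binding protein of insulin-like growth factors, was -0.83, -3.18, -0.54, 1.45, -0.02 and -2.59, high in 30AC5 alone among the iPS lines. HMGCS1, of cholesterol synthesis, was 0.08, -5.11, -0.36, -1.50, 0.59 and 1.47, and the fatty acid carrier FABP5 had probe sets at 1.12 and 1.13. BTG2, an antiproliferative p53 target, was 0.20, -0.34, 1.40, -0.46, 1.48 and 0.92, whereas the cyclin kinase inhibitor CDKN1B had probe sets from -3.77 to 0.08 and so no settled direction. Among 27 chaperones HSP70.2 differed by 1.10 and HSPA6 by 1.03, and 0 were lower by 1 or more.

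Housekeeping groups were near equal. Ribosomal protein genes (37 measured) had a median difference of 0.05 and a range from -0.27 to 0.94, and oxidative phosphorylation genes (35 measured) had a median of 0.09 and a range from -0.67 to 0.52. In neither list did a gene differ by 1 or more. Genes of the TCA cycle (20), integrins (9) and aquaporins (13) likewise held 0 such genes. Of 28 proteasome genes 2 were lower in PS24 by 1 or more. Below that size some lists leaned to 1 side. PS24 was the lower line for 15 of the 20 TCA cycle genes (median -0.22) and 22 of the 28 proteasome genes (median -0.10). It was the higher line for 29 of the 37 ribosomal protein genes. Interferon-induced genes (23) had a median of 0.03, and 2 were lower by 1 or more. They were USP18, a protease that removes ISG15, at 1.97, 0.16, -1.34, 1.54, 0.02 and -0.12, and GBP1, whose 3 probe sets ran from -2.97 to -0.19. Of 14 MHC class I presentation genes 1 was higher by 1 or more, PSMB10 (an immunoproteasome subunit) at 1.12.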

How the data were processed

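Total RNA of 6 pig samples was hybridised to Affymetrix Pig Genome Arrays, per the labels' protocols. The deposited table holds log2 values of 24123 probe sets on 6 arrays with 0 missing. The log base was read from the range of the values. Software, summarization, normalization and genome build are not given in the sources that were at hand. In 4431 probe sets 2 arrays hold equal and opposite values (within 2e-06), as a baseline taken as a median would give. The 188 control probe sets (124 AFFX, 64 RPTR) were left out. GEO's platform annotation gave 1 symbol to 10069 of the 23935 others, several to 198 and none to 13668. Of the named ones 9961 were found by gene ID in a RefSeq table, 0 under another symbol.

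Differences were computed as deposited, with Python 3.11.15 and pandas 2.3.3, and no test was made. The arithmetic was tested on simulated data. The lines, the 46 gene lists and the alternatives were chosen with earlier results of these data known. Named were the 15 genes per direction with several agreeing probe sets and the largest weakest difference, the 10 largest per direction with 1 probe set, and the 4 members per list with the largest mean difference. A part of these is printed. Further list members are given for their role, and EGF, HBEGF, TGFA, ACTG2 and the unnamed probe sets were added after their values were seen. Alternatives were quantile normalization, median centring, a loess trend taken off and other sizes. Others were filters on low values, shared or unnamed probe sets, and other choices of probe set. The low-value filter and the choice of the probe set with the highest mean used the deposited values. As their zero differs between probe sets, neither ranks signal strength.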

Additional observations from a re-analysis of the deposited data

How the results depend on the processing

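Counts of probe sets past 2 units were 145 higher and 359 lower in PS24 as deposited, 444 and 686 after quantile normalization over 6 arrays, 1052 and 1613 at 1 unit, 38 and 78 at 3 units, and 47 and 180 with 1 symbol. Quantile normalization over 5 arrays without PAFSC, added after seeing the data, gave 219 higher, and the share of higher calls was 38.3% there, 39.5% at 1 unit and 28.8% as deposited. Genes whose probe sets agree numbered 18 and 49, against 42 and 104 after quantile normalization over 6 arrays, 4 and 1 when every probe set had to pass 2 units, and 8 and 15 when the mean had to. In 6 arrays the wide PAFSC array enters the quantiles; the cause of the higher counts was not tested.

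Of 319 list medians under alternatives 287 moved by less than the standard error of a median over the list's genes and 32 by more. After quantile normalization over 6 arrays they were 0.20 for core pluripotency, -0.44 for the TCA cycle, -0.80 for hypoxia, -1.73 for the stress list, -0.30 for the proteasome and -0.74 for annexins and S100. Median centring gave 0.010 for ribosomal proteins, and the loess correction -0.012 for them and 0.015 for oxidative phosphorylation. With the probe set of highest mean they were -0.81 for contractile, 0.12 for matrix and 0.014 for lysosome genes. With the probe set of smallest difference they were -0.81 for contractile, 0.12 for matrix, 0.34 for neural, 0.042 for MHC class I and -0.29 for hypoxia genes. With genes of several probe sets alone they were -0.53 for FGF and ERK, -0.19 for TGF-beta, -0.56 for contractile, 0.047 for macrophage, 2.23 for trophoblast, -0.33 for inflammatory, 0.17 for oxidative phosphorylation, -0.50 for the TCA cycle, -0.29 for hypoxia, -0.18 for heat shock, 0.15 for ribosomal, -0.32 for proteasome, 0.72 for annexin and S100, -0.078 for lysosome and 0.12 for solute carrier genes. The 3 medians of 1 or more in size (neural, contractile, stress) kept their sign in all 21 alternative values. Median centring moves all differences alike by far less than 1 unit, so it could not change these signs. In the neural and contractile lists most genes have probe sets of 1 sign only, so choosing among probe sets could not change them either. Of 136 named genes that differed by 1 or more, 5 reversed in 7 of 816 alternative values: PDGFRB (0.23) and TYMS (0.036) with the probe set of highest mean and that of smallest difference, and COL8A1 (0.19), CDKN1B (0.076) and VEGFA (0.28) with the latter. Genes with 1 probe set could not reverse by the choice of probe set, nor could genes named because all their probe sets agree. Part of the 816 values could therefore show no reversal. No paired analysis was possible because each line has 1 array, and for the same reason no replicate could be left out.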
